A study of Mus musculus with 19 samples.

Results

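The 26 genes described here make, move, sense and break down the inhibitory transmitter GABA, hold its receptors at synapses, or mark the interneurons that release it. They were chosen by gene symbol, from a list drawn up with earlier results of these data known, and all 26 were found among the 20655 gene IDs of the count table. They comprise 5 genes of GABA synthesis, transport and breakdown, 9 subunits of the GABAA receptor, 2 subunits of the GABAB receptor, 2 genes of the postsynaptic scaffold and 8 interneuron markers. All 26 passed the filter on low counts, which left 18204 genes for testing, and the lowest count of any of them in any library was 174.

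RNA of the left hippocampus was sequenced in bulk from 19 mice aged 4 months, with 1 library per animal. Every animal was hemizygous for 5xFAD, a transgenic model of amyloid deposition in which neurons express mutant human transgenes under the Thy1 promoter. The controls were 5 females and 5 males with no other allele named in the labels, called 5xFAD animals here. The other 4 females and 5 males were homozygous, in addition, for the clusterin allele labelled CLUh2kbKI and are called knock-in animals. Mice without 5xFAD were not analysed here, so each comparison concerns the knock-in, or sex, on an amyloid background. Libraries are named by the numbers in their titles, which run from 1 to 5 in females and from 6 to 10 in males, and knock-in female 3 is not among the libraries.

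GABA is made from glutamate by glutamic acid decarboxylases, packed into vesicles, and released onto ionotropic GABAA and metabotropic GABAB receptors. GABAA receptors are pentamers whose subunits set where the receptor sits and how it responds. In the hippocampus the transmitter comes mainly from local interneurons, a small share of all neurons, which are commonly divided by the peptides and calcium-binding proteins they contain.

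Libraries held 17.28 to 25.2 M counts (M for mega). Clu, the gene that the knock-in targets, stood at 1069 ± 214 CPM (counts relative to the TMM-scaled library total; SD, n = 9) in knock-in animals and 979 ± 120.1 CPM (SD, n = 10) in 5xFAD animals, and did not pass the test (log2 change 0.13, edgeR adjusted p = 0.665). Counts of mouse genes need not include sequence of another species, so this level does not check the labels. The summed level of 10 general neuronal markers ran from 5307 to 7681 CPM, and that of 10 markers of granule and pyramidal neurons from 693.6 to 1211 CPM. Both lists were thus detected in every library. Sums of 6 markers each ran from 222.3 to 445.8 CPM for cortex, 67.54 to 155.8 CPM for striatum and 71.94 to 155.3 CPM for thalamus. How much neighbouring tissue the dissections held was not tested. The sum of 6 choroid plexus markers ran from 32.41 to 11350 CPM. No batch is labelled, but the genotypes have different library letters and separate runs of animal numbers, so genotype and a batch that follows those codes cannot be told apart.

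Over both sexes, no GABA gene passed the test between knock-in and 5xFAD animals. The comparison asks which hippocampal RNAs change with the clusterin allele. By edgeR's quasi-likelihood test with sex as a covariate, 0 of 26 members passed an adjusted p of 0.05 (Benjamini-Hochberg over 18204 genes), where 0.022% of all genes tested did, and DESeq2 and limma-voom also called 0. At an unadjusted p under 0.05 the count was 0 of 26 by all 3 tools, against 11.9% of all genes by edgeR. The median log2 change of the members was -0.06, and 19 of 26 lay below 0, where 9169 of 18204 genes did. The member with the lowest p was Calb2, which encodes the calcium-binding protein calretinin (log2 change -0.59, SE 0.31, adjusted p = 0.466). A p that misses the threshold does not show that levels were alike, and the SE of the members ran from 0.06 for Gabbr1 to 0.31 for Calb2.

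**Figure D1:**
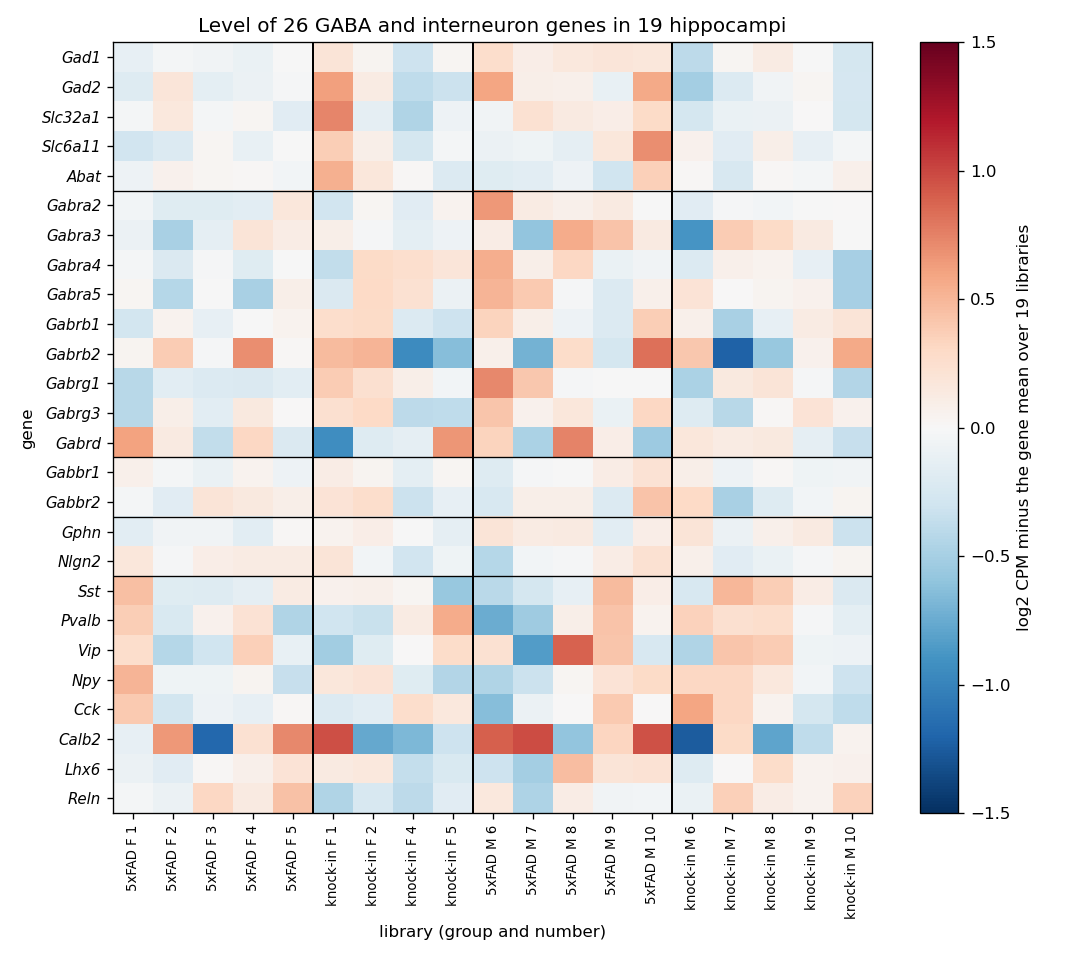
Level of each of the 26 genes in each of the 19 libraries, as log2 CPM minus the gene's mean over all libraries (colour scale), with genes ordered by role and libraries by group. No block of genes separates the groups as a whole, while Reln is low in the 4 knock-in female libraries and Calb2 varies widely within every group.

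In females, 1 of 26 members passed the test, and it was lower in the knock-in. This was Reln, which encodes reelin, a large secreted glycoprotein made in adult hippocampus by interneurons and by surviving Cajal-Retzius cells. Reln fell by 0.48 on the log2 scale (0.719-fold, SE 0.13, edgeR adjusted p = 0.0382). Of all genes tested, 5.56% passed in this comparison and 4.43% were lower, so 1 member called is near the background. At an unadjusted p under 0.05 there were 2 members, Reln and Gabrg1, against 22.1% of all genes. The median change of the members was 0.02 and that of all genes 0.01.

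Reln stood at 44.1, 50.8, 46.0 and 53.6 CPM in knock-in females 1, 2, 4 and 5. The 5xFAD females 1 to 5 had 59.1, 56.5, 74.8, 66.2 and 81.6 CPM. Every knock-in female was below every 5xFAD female, although the highest of the former (53.6) and the lowest of the latter (56.5) were close. The share of all genes with such complete separation was not counted, for this or for later comparisons. In males, Reln was 56.3, 77.2, 65.1, 62.5 and 76.3 CPM in knock-in animals 6 to 10. It was 67.1, 43.7, 65.1, 58.2 and 58.5 CPM in 5xFAD males 6 to 10. The male groups overlapped (log2 change 0.21, SE 0.12, edgeR adjusted p = 0.807). Among knock-in animals all 4 females lay below all 5 males (log2 difference -0.47, adjusted p = 0.0989). In bulk tissue, fewer cells that make reelin and less Reln RNA per cell cannot be told apart.

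**Figure D2:**
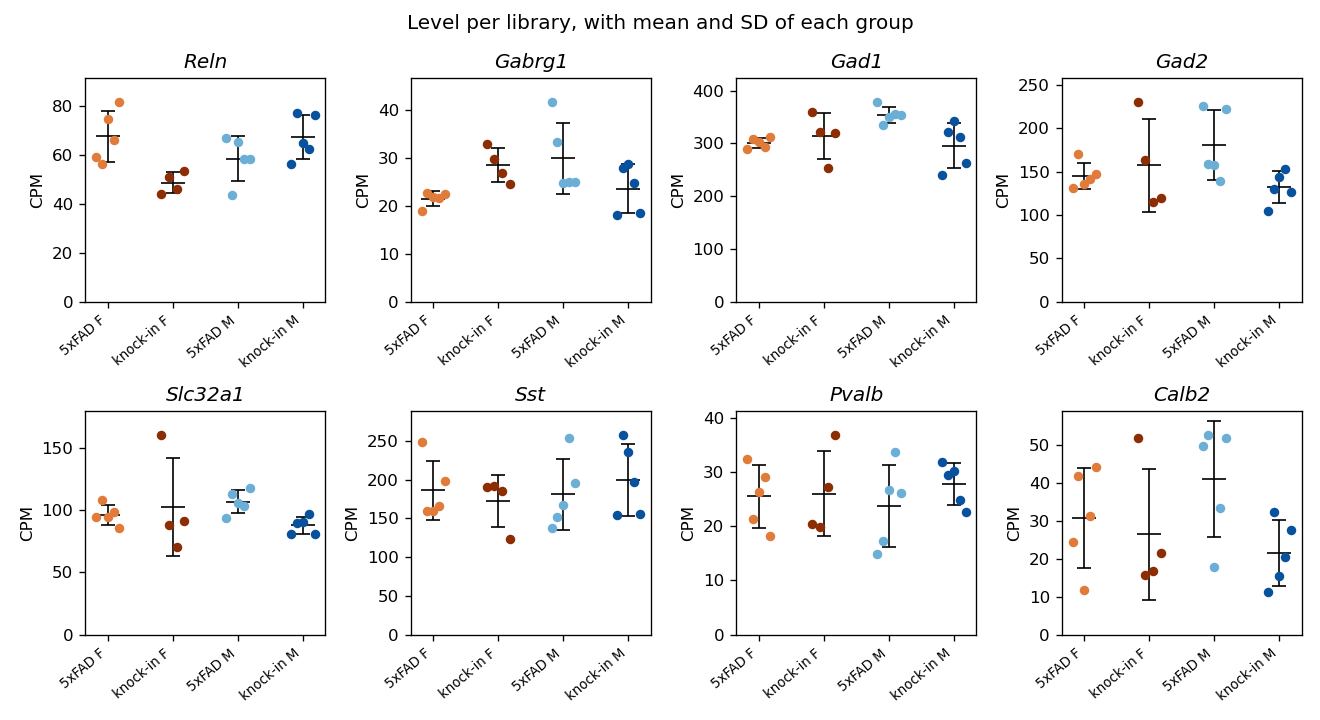
CPM of 8 genes (Reln, Gabrg1, Gad1, Gad2, Slc32a1, Sst, Pvalb, Calb2) in every library by group, on axes that start at 0, with the group mean and SD. The Reln points of knock-in females (44.1 to 53.6 CPM) lie below those of 5xFAD females (56.5 to 81.6 CPM), and most other panels overlap between genotypes.

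The Reln call was close to the threshold. It was lost when any 1 of knock-in females 1, 2 or 4, knock-in male 9, 5xFAD females 3, 4 or 5, or 5xFAD males 8 or 9 was left out, with adjusted p from 0.0517 to 0.153. The change stayed below 0 in all 29 alternatives run for females. Of the 4 Cajal-Retzius markers tested, 0 passed in females, and their summed level was 6.09 to 12.5 CPM in knock-in females and 7.5 to 12.5 CPM in 5xFAD females. Their means over all libraries were low, at 0.40 CPM for Lhx1, 0.50 for Lhx5, 2.74 for Ebf3 and 4.755 for Trp73. A change could be missed at such levels, and the part of Cajal-Retzius cells was not tested. The mean log2 CPM of 8 long noncoding RNAs did move with the female groups, at 6.53 ± 0.43 (SD, n = 4) in the knock-in and 8.21 ± 0.17 (SD, n = 5) in 5xFAD, with no overlap. Among libraries of the same group, Reln had a slope of -0.03 on that level (SE 0.10, adjusted p = 0.914). With the level as a covariate the Reln change in females was -0.53, with an adjusted p of 1 in a fit that called no gene. The choroid plexus sum was 3445 to 11350 CPM in knock-in females and 616 to 5189 CPM in 5xFAD females, and its part in the Reln result was not tested.

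The 250 bases before the start of Reln on mouse chromosome 5 are shown because Reln is the member that passed a test and its promoter window is rich in G and C. The sequence is from RefSeq on GRCm38.p6, chr5:22344706-22344955, minus strand, 5′ to 3′, with GC boxes (GGGCGG, searched on both strands) in capitals.
Reln: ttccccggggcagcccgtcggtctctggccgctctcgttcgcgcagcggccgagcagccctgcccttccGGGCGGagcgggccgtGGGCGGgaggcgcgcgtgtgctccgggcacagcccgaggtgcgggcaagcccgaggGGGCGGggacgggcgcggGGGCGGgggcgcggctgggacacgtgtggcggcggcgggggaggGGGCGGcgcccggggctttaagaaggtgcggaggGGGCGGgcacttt
It holds 6 GC boxes between 13 and 181 bases before the start, a number that 0.886% of 32851 promoter windows of that length reach. At least 1 GC box was present in 32.7% of all windows. Of the 23 members matched in the RefSeq table, 13 had a box in at least 1 of their windows. Only 18 of the 23 had a single window, so the count per gene is not like for like with the share of windows. The Reln window was 80.0% G or C with 37 CpG dinucleotides, against medians of 52.4% and 6 over all windows. Gabbr2, whose level did not pass in females (log2 change -0.03), had the same number of CpGs and 80.8% G or C. These matches describe letters in the window and say nothing on the factors bound there.

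In males, Gad1, Gad2 and Slc32a1 had lower means with the knock-in but did not pass the test. Here 0 of 26 members passed, as did 0% of all genes, and DESeq2 and limma-voom also called 0. At an unadjusted p under 0.05 there were 6 members by each of the 3 tools, against 6.52% of all genes by edgeR, and all 6 were lower in the knock-in: Gad1, Gad2, Gabra2, Gabra4, Gabrg1 and Calb2. The median change of the members was -0.13, where that of all genes was 0.01, and 20 of 26 lay below 0, where 8754 of 18204 genes did. The summed level of the 10 general neuronal markers was also lower in males with the knock-in, at 5888 to 7169 CPM (median 6601) against 6894 to 7681 CPM (median 7147), and only knock-in male 6 was within the 5xFAD range. None of those 10 markers passed in males by edgeR (median log2 change -0.09), and their part in the male values of the GABA genes was not tested.

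Gad1, which encodes the decarboxylase GAD67 that makes most of the GABA in brain, was 239.7, 321, 343, 313 and 262 CPM in knock-in males 6 to 10. It was 378, 336, 349.7, 355 and 354 CPM in 5xFAD males 6 to 10. Knock-in males 6, 7, 9 and 10 lay below every 5xFAD male, and knock-in male 8 lay within their range. The log2 change was -0.26 (SE 0.10, edgeR adjusted p = 0.715). In females, Gad1 was 359, 322, 253 and 320.0 CPM in the knock-in against 289, 308, 303, 292 and 312 CPM in 5xFAD. Here 3 of 4 knock-in females were above every 5xFAD female and the other was below them all (log2 change 0.06, adjusted p = 0.793).

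Gad2 encodes GAD65, the isoform tied to synaptic vesicles. It was 105, 130.2, 144, 153 and 126 CPM in knock-in males against 226, 159, 157, 139 and 222 CPM in 5xFAD males. The groups overlapped, with 5xFAD males 6 and 10 far above the rest (log2 change -0.46, SE 0.17, edgeR adjusted p = 0.715). In females the knock-in libraries had 229.9, 163, 115 and 120.1 CPM and the 5xFAD libraries 131, 170.2, 135, 141 and 148 CPM. Knock-in females spanned the whole 5xFAD range on both sides (log2 change 0.11, adjusted p = 0.764).

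Slc32a1 encodes VGAT, the transporter that loads GABA and glycine into vesicles. In males it was 80.8, 89.8, 90.8, 96.9 and 80.5 CPM with the knock-in and 93.5, 113, 106, 104 and 117 CPM without. Knock-in males 6, 7, 8 and 10 were below all 5xFAD males (log2 change -0.28, SE 0.15, edgeR adjusted p = 0.772). In females it was 160.3, 88.0, 70.6 and 91.5 CPM with the knock-in and 94.5, 108, 94.4, 98.4 and 85.9 CPM without. Knock-in female 1 was far above all other libraries for Slc32a1, and it was also the highest knock-in female for Gad1 and Gad2. A gene on the opposite strand, Gm14205, covers 24.9% of the exon bases of Slc32a1 in GENCODE M21, and the labels do not say whether the libraries keep strand, so reads of the pair cannot be told apart there.

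Slc6a11 encodes GAT3, the GABA transporter of astrocytes, and Abat the transaminase that degrades GABA. Slc6a11 ranged from 118 to 233 CPM over the libraries, with changes of 0.17 in females and -0.18 in males. Abat ranged from 182 to 325 CPM, with changes of 0.16 and 0.02. Neither passed in any comparison. All 5 genes of synthesis, transport and breakdown had a change above 0 in females and 4 of 5 had one below 0 in males. Of 18204 genes tested, 9294 were above 0 in females and 8754 below 0 in males. The medians of these 5 genes were 0.11 and -0.26. The male count was 4 of 5 under every other scaling tried, while the female count was 3 of 5 with library size alone and 4 of 5 with the authors' normalized values.

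**Figure D3:**
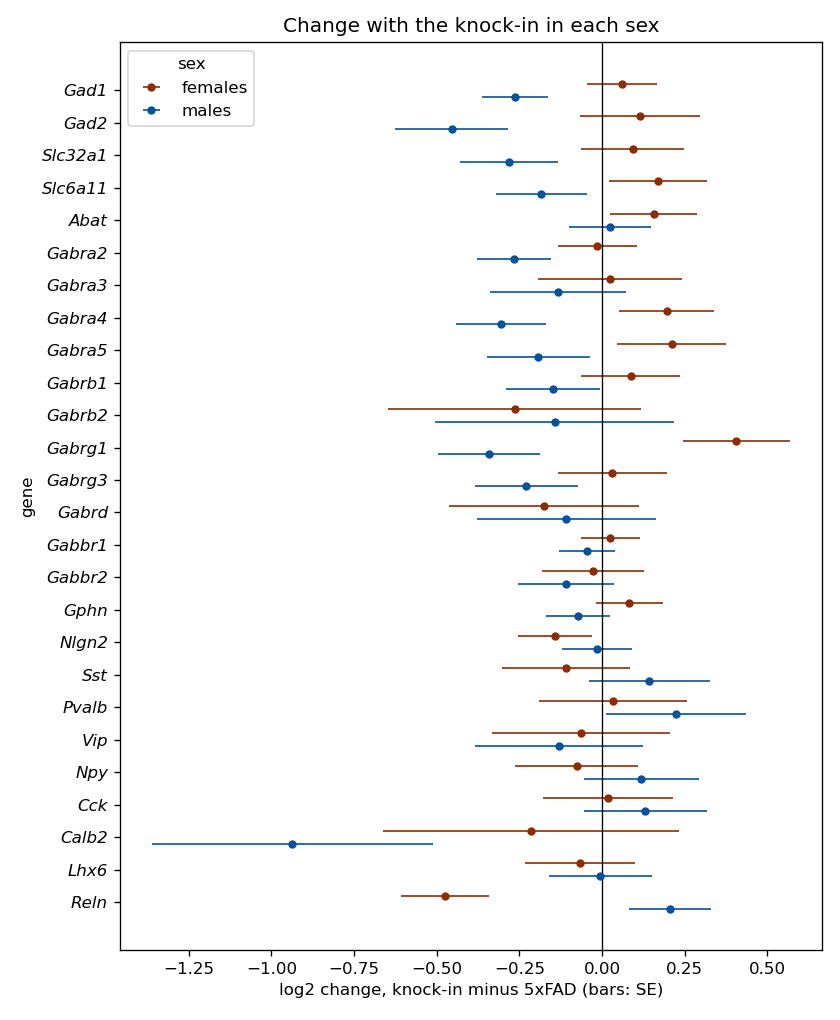
Log2 change with the knock-in (knock-in minus 5xFAD) for each of the 26 genes, in females and in males, with SE bars. All 9 GABAA subunits lie left of 0 in males (-0.34 to -0.11), while Reln lies left of 0 in females (-0.48) and right of it in males (0.21).

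Among the 9 GABAA subunits, none passed in either sex. In males all 9 had a log2 change below 0, from -0.34 for Gabrg1 to -0.11 for Gabrd, with a median of -0.19. Of all genes tested, 8754 of 18204 were below 0 in males. All 9 subunits were below 0 in males under each of the 3 other scalings as well. In females 6 of 9 were above 0 with a median of 0.03, but 3 of 9 with library size alone and 4 of 9 with the authors' normalized values. These subunits were measured in the same libraries, so their shared sign is not independent evidence. The general neuronal markers had a median change of -0.09 in the same male libraries, as given above.

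Gabrg1 encodes the gamma1 subunit, found at low levels in hippocampus and also in glia. In females it was 32.9, 29.8, 26.7 and 24.5 CPM with the knock-in and 18.8, 22.6, 21.9, 21.6 and 22.5 CPM without. All 4 knock-in females were above all 5 5xFAD females (log2 change 0.41, SE 0.16, edgeR adjusted p = 0.139). Such separation was not counted over all genes, of which 22.1% had an unadjusted edgeR p under 0.05 in females. With only the female libraries in the fit the change was 0.39 and passed (edgeR adjusted p = 0.0436). The share of all genes called by that fit is not given here, so the call has no background beside it. In males Gabrg1 was 18.1, 27.8, 28.7, 24.8 and 18.5 CPM with the knock-in and 41.6, 33.2, 24.8, 25.0 and 25.0 CPM without. Here the groups overlapped and the change had the opposite sign (-0.34, SE 0.15, adjusted p = 0.745). The summed level of 6 astrocyte markers was 3550 to 4770 CPM in knock-in females and 2947 to 3535 CPM in 5xFAD females, with 1 of 6 called higher, and its part in the Gabrg1 values was not tested.

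The alpha subunits decide much of a receptor's location. Gabra2 (alpha2, common at the axon initial segment and soma of pyramidal cells) changed by -0.26 in males and -0.01 in females. Gabra4, whose product joins the delta subunit in extrasynaptic receptors of granule cells, changed by -0.30 and 0.20. Gabra5, the subunit of extrasynaptic receptors of pyramidal dendrites, changed by -0.19 and 0.21. Gabra3, on the X chromosome, changed by -0.13 and 0.02. None of these passed (edgeR adjusted p of at least 0.45 in each sex). Gabra4 and Gabrb1 are neighbours on chromosome 5 whose exons overlap by 46 bases on opposite strands, 0.756% of the exon length of Gabra4.

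Of the beta subunits, which every GABAA receptor of the usual kind contains, Gabrb1 ranged from 109 to 198 CPM and Gabrb2 from 29.6 to 121 CPM. Gabrb2 was 35.7 and 44.1 CPM in knock-in females 4 and 5 but 95.3 and 97.7 CPM in knock-in females 1 and 2, giving a mean of 68.2 ± 32.9 CPM (SD, n = 4). Gabrg3 ranged from 15.9 to 28.5 CPM. Gabrd, the delta subunit of tonic inhibition, ranged from 13.9 to 44.4 CPM. Their changes ran from -0.26 to 0.09 in females and from -0.23 to -0.11 in males, and none passed.

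The GABAB receptor is an obligate pair of a ligand-binding subunit (Gabbr1) and a subunit that couples to G proteins (Gabbr2). Gabbr1 was 636 ± 46.0 CPM (SD, n = 4) in knock-in females and 625 ± 32.2 CPM (SD, n = 5) in 5xFAD females. In males it was 625 ± 30.8 CPM and 645 ± 68.1 CPM (SD, n = 5 each). Its changes, 0.02 in females and -0.05 in males, had the smallest SE among the members in both sexes (0.09 and 0.08). Gabbr2 changed by -0.03 and -0.11.

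At the postsynaptic side, Gphn encodes gephyrin, the scaffold that clusters GABAA and glycine receptors, and Nlgn2 encodes neuroligin 2, the adhesion protein of inhibitory synapses. Gphn stayed between 50.4 and 72.1 CPM over all libraries and changed by 0.08 in females and -0.07 in males. Nlgn2 ranged from 193 to 306 CPM and changed by -0.14 and -0.02. Neither passed (edgeR adjusted p of at least 0.491).

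Apart from Reln, no interneuron marker passed in either sex. Sst encodes somatostatin, the peptide of dendrite-targeting interneurons. It was 190.2, 192, 185 and 123 CPM in knock-in females and 248, 160.0, 159, 165 and 198 CPM in 5xFAD females. In males it was 154, 257, 236, 197 and 156 CPM with the knock-in and 138, 152, 167, 253 and 195 CPM without. The groups overlapped in both sexes (log2 changes -0.11 and 0.14, edgeR adjusted p = 0.797 and 0.926).

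The 30 bases around the cAMP response element (TGACGTCA, both strands searched, in capitals) before Sst are shown because Sst was the only 1 of 23 matched members to hold the full element, which 1.55% of all windows held. The sequence is from RefSeq on GRCm38.p6, chr16:23890874-23890903, minus strand, 5′ to 3′, with the element 48 bases before the start.
Sst: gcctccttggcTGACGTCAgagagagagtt

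Pvalb encodes parvalbumin, the calcium buffer of fast-spiking basket and chandelier cells. It was 20.4, 19.8, 27.2 and 36.8 CPM in knock-in females and 32.5, 21.4, 26.3, 29.1 and 18.2 CPM in 5xFAD females. In males it was 31.8, 29.5, 30.1, 24.7 and 22.6 CPM with the knock-in and 15.0, 17.3, 26.7, 33.7 and 26.1 CPM without. The groups overlapped, with changes of 0.03 and 0.22 (edgeR adjusted p = 0.954 and 0.887).

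Calb2, the calretinin gene, is used both for interneurons and for immature granule cells and, in mouse, mossy cells. It was 11.2, 32.4, 15.4, 20.5 and 27.7 CPM in knock-in males and 49.8, 52.6, 17.7, 33.4 and 51.8 CPM in 5xFAD males. The 5xFAD males 6, 7, 9 and 10 were above every knock-in male and 5xFAD male 8 was not (log2 change -0.94, SE 0.43, edgeR adjusted p = 0.751). In females it was 52.0, 15.6, 16.7 and 21.5 CPM with the knock-in and 24.5, 41.7, 11.7, 31.3 and 44.1 CPM without, which overlapped. A sum of 5 mossy cell markers was 12.76 to 19.03 CPM in knock-in males and 12.78 to 20.55 CPM in 5xFAD males. Each of these markers was low, with means over all libraries from 2.14 CPM for Nmb to 5.83 CPM for Calcrl. The Cajal-Retzius sum was 4.53 to 8.98 CPM (median 6.14) in knock-in males and 2.87 to 13.5 CPM (median 10.4) in 5xFAD males. No marker of either list passed in males by edgeR, and the part of these cells in the Calb2 values was not tested.

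The other markers did not pass in either sex. Vip encodes the peptide of interneurons that inhibit other interneurons, Npy a peptide of neurogliaform and somatostatin cells, Cck a peptide of a basket cell type that pyramidal cells also make, and Lhx6 a transcription factor of interneurons from the medial ganglionic eminence. Their changes ran from -0.08 to 0.02 in females and from -0.13 to 0.13 in males. The lowest and highest CPM over all libraries were 8.90 and 29.3 for Vip, 16.4 and 31.9 for Npy, 177 and 415 for Cck, and 13.0 and 25.6 for Lhx6.

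The difference between the sexes in the knock-in effect was tested as an interaction, the change in females minus that in males. It called 0 of 26 members, where 0.308% of all genes passed. At an unadjusted p under 0.05 there were 5 members (Reln, Gabrg1, Gabra4, Gad2 and Gad1), against 17.7% of all genes. Gabrg1 had an interaction of 0.75 (SE 0.22, edgeR adjusted p = 0.0955) and Reln one of -0.68 (SE 0.18, adjusted p = 0.0723). DESeq2 called both, at 0.77 (adjusted p = 0.0378) for Gabrg1 and -0.66 (adjusted p = 0.0287) for Reln, and limma-voom called 0. Whether these genes passed thus depended on the tool. The 0.308% is by edgeR, and the share of all genes called by DESeq2 is not given, so its calls have no background here.

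Between the sexes of one genotype, no member passed. In 5xFAD animals the count was 0 of 26, where 0.0385% of all genes passed, and in knock-in animals 0 of 26, where 0.0494% passed. At an unadjusted p under 0.05, 3 members were lower in 5xFAD females than in 5xFAD males (Gabrg1, Gabra2 and Gad1, against 11.1% of all genes), and 1 member, Reln, was lower in knock-in females than in knock-in males (against 14.4%). DESeq2 and limma-voom also called 0 in both, with the same unadjusted counts. For Gad1 and Gabrg1 all 5 5xFAD females lay below all 5 5xFAD males, with log2 differences of -0.24 and -0.48 (edgeR adjusted p = 0.395 and 0.35). How many of all genes separated the 5xFAD sexes in this way was not counted. These sex comparisons use the same 5xFAD and knock-in libraries as the genotype comparisons above.

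The noncoding RNA level was also fitted beside the 4 group means. No member passed, where 3.92% of all genes did. At an unadjusted p under 0.05 there were 3 members, against 13.6% of all genes, and all had negative slopes: Slc6a11 (-0.23), Npy (-0.31) and Sst (-0.31), in log2 per log2 unit of the level (edgeR adjusted p = 0.25, 0.254 and 0.303). DESeq2 and limma-voom also called 0, with 3 at an unadjusted p under 0.05.

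Of 34 further genes of the GABA pathway (other receptor, transporter and inhibitory synapse genes), 29 were tested and 0 passed with the sexes together. In females 2 of 29 passed, both lower in the knock-in, which is near the background of 5.56% of all genes called and 4.43% called lower. Igsf9b, an adhesion protein of inhibitory synapses, was 26.2, 25.2, 16.1 and 33.9 CPM with the knock-in and 57.3, 51.9, 62.5, 103 and 42.0 CPM without, with no overlap (log2 change -1.32, SE 0.33, edgeR adjusted p = 0.0282). Shisa7, an auxiliary protein of GABAA receptors, was 119, 144, 112 and 125 CPM against 186, 169, 168, 165 and 176 CPM, again with no overlap (-0.47, SE 0.13, adjusted p = 0.0325). How many of all genes had no overlap between the female groups was not counted. Igsf9b rose with the noncoding RNA level within groups (slope 0.68, edgeR adjusted p = 0.0366). With that level as a covariate, the female change was -0.19 for Igsf9b and -0.16 for Shisa7, in a fit that called no gene. The female groups did not overlap in that level, so the level and the knock-in cannot be told apart there. The Igsf9b call was lost without any 1 of knock-in females 1, 2 or 4 or 5xFAD females 1 or 4 (adjusted p from 0.0537 to 0.121), and the Shisa7 call without any 1 of the 9 female libraries (adjusted p from 0.0519 to 0.156).

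Of 33 further interneuron genes, all were tested and 0 passed with the sexes together, in females or in males. Their median change was -0.09 with the sexes together. Maf, a transcription factor of interneurons from the medial ganglionic eminence that macrophages also express, changed by 0.22 (edgeR adjusted p = 0.384).

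Levels of different genes were compared per length, as CPM per kilobase of exon. Exon length was taken as all bases in any annotated exon of a gene in GENCODE M21, 23738 bases for Reln. It can exceed the length of a single transcript, so the order of the genes depends on this choice. Sst (257 ± 54.6, SD, n = 19) and Cck (215 ± 45.3) led, although Sst has a short transcript and Cck is also made by pyramidal cells. They were followed by Gabbr1 at 81.5, Gabra5 at 56.8 and Nlgn2 at 45.3 CPM per kilobase. Gabra5 was the highest of the 9 GABAA subunits described, and its lowest library (39.5) was above the highest library of any other (27.5, for Gabra3). Gad1 at 41.4 exceeded Gad2 at 26.1 CPM per kilobase, with ranges over libraries of 31.4 to 49.5 and 17.8 to 39.1 that overlapped. Gabrg3 at 1.81, Reln at 2.58 and Gabrg1 at 3.27 were lowest. Neighbours in this order mostly overlapped in their ranges.

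**Figure D4:**
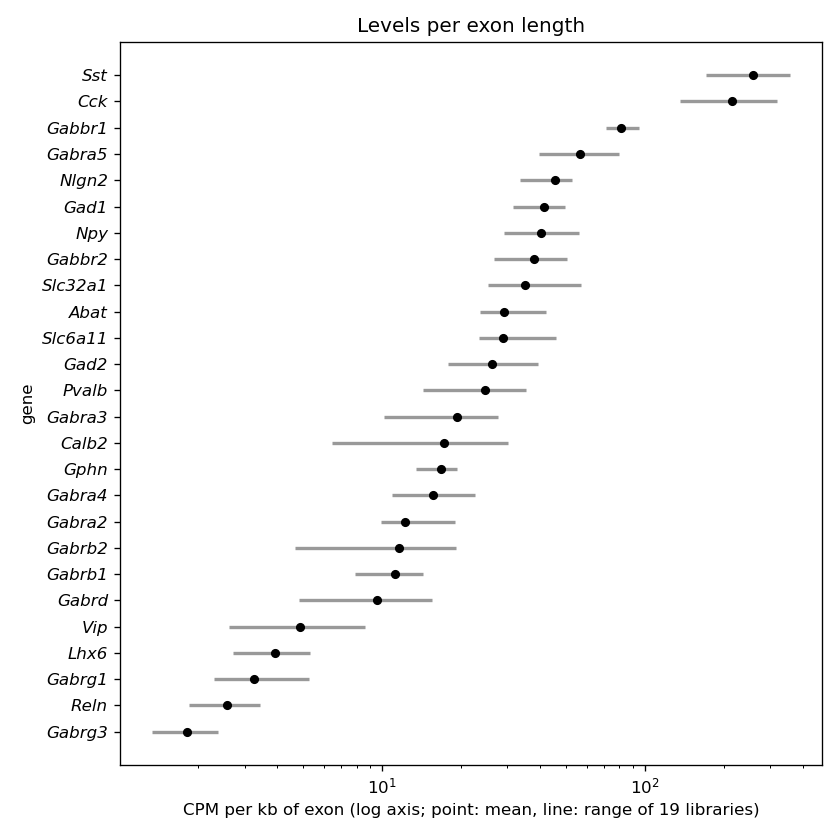
Mean level per kilobase of exon (CPM per kb, log axis, exons of all annotated transcripts joined) of each of the 26 genes, with a line from the lowest to the highest of 19 libraries. Sst and Cck stand apart at the top (257 and 215), and Gabrg3 is at the bottom (1.81).

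The members differed widely in how much they varied between animals of the same group. As the residual SD of log2 CPM around the 4 group means, Calb2 was the most variable at 0.71, followed by Gabrb2 at 0.61, Gabrd at 0.47 and Vip at 0.45. Among 8872 genes at or above the level of the lowest member, with no upper limit, Calb2 stood at the 99.5th percentile and Gabrb2 at the 99.1st. Among all genes tested, Calb2 stood at percentile 87.1 and Gabrb2 at 81.6. Gabbr1 was the steadiest at 0.11, at the 4.99th percentile of the 8872 genes and at 2.45 of all genes tested. The median was 0.26 for the members, 0.19 for the 8872 genes and 0.27 for all genes tested. Of the members, 21 of 26 were above the median of the 8872 genes.

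Some members moved together from animal to animal within groups. Deviations of log2 CPM from the group means were correlated for all 325 pairs over 19 libraries, with permutation within groups (100000 draws, two-sided). By that test 9 pairs had an adjusted p under 0.05 for Pearson's r, 7 positive and 2 negative, but none for Spearman's rho. Pairs of other genes were not examined, so whether members pair more often than other genes is not known. Gabrb1 and Gabrg3 had r = 0.87 and rho = 0.83 (permutation p = 0.00014 and 0.00058, adjusted 0.0195 and 0.0628). Without the 2 libraries whose Gabrb1 deviations lay farthest from the median, r was 0.83. Libraries extreme for the other gene of a pair were kept. Gabbr1 and Nlgn2 had r = 0.86 and rho = 0.73 (permutation p = 0.00027 and 0.00255, adjusted 0.0195 and 0.078), and r = 0.73 without the 2 farthest for Gabbr1. Cck went opposite to Gabrg3, with r = -0.78 and rho = -0.82 (permutation p = 0.00018 and 0.0002, adjusted 0.0195 and 0.0628), and r = -0.74 without the 2 farthest for Gabrg3.

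Among interneuron markers, Pvalb and Cck had r = 0.74 and rho = 0.69 (permutation p = 0.0003 and 0.00117, adjusted 0.0195 and 0.078), and r = 0.73 without the 2 libraries farthest for Pvalb. Gad1 and Gad2, which sit in the same cells, had r = 0.67 with an adjusted permutation p of 0.0621. Both values of a pair come from the same library, so depth, dissection and RNA quality are shared, and their part was not tested.

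**Figure D5:**
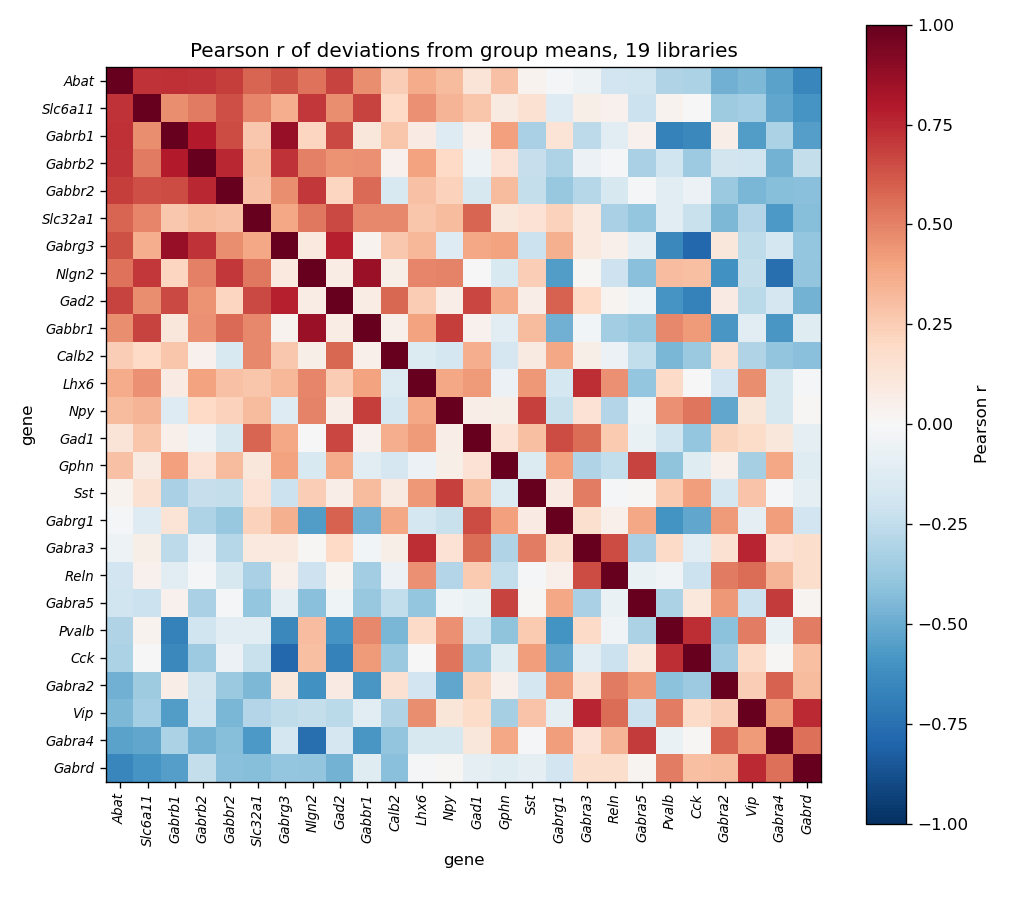
Pearson correlation between every pair of the 26 genes over 19 libraries, from deviations of log2 CPM from group means (colour scale from -1 to 1). The strongest positive cell is Gabrb1 with Gabrg3 (0.87) and the strongest negative one Gabrg3 with Cck (-0.78).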

How the data were processed

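The authors deposited estimated counts per gene as whole numbers, per the file headers and values. They also deposited normalized counts, a signal scaled by factors that differ by gene and library, and variance-stabilized values on a log2 scale, which were not used. FastQC, Salmon, DESeq2, Seurat and mouse build mm39 are named in the submitters' processing notes, without versions. GENCODE M21 (GRCm38) gave symbols for 20023 of 20655 IDs (96.9%). As the builds differ, the files gave no coordinates, and promoters came from RefSeq.

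Tests on the counts used the quasi-likelihood F-test of edgeR 4.0.16 under R 4.3.3 (TMM scaling, filterByExpr with a minimum of 10 counts, robust dispersions), with Benjamini-Hochberg adjustment over 18204 genes and a threshold of 0.05. Log2 CPM used a prior count of 2. Alternatives included DESeq2 1.42.0, limma 3.58.1 (voom, and limma-trend on log2 of the authors' normalized counts plus 1), other scalings and filters, and leaving out each library. The fitting script was tested on simulated data.

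All 26 members were named. Every library's value was given for members past the threshold and for Gad1, Gad2, Slc32a1, Sst and Pvalb; Gabrg1, Calb2 and part of Gabrb2 were added after their values were seen. Of the further lists, genes past the threshold were named, otherwise the 2 of lowest p, of which 1 is not reported here. The members and lists were chosen with earlier results of these data known. The 36 pairs of libraries within groups all differed by more than sampling noise (the lowest chi-square per gene was 10.3, and noise gives values near 1). Depth was 17.28 to 25.2 M counts per library.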

Additional observations from a re-analysis of the deposited data

Results flagged for a closer look

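In 7 of 104 sets of member and group, the highest or lowest library stood apart from the rest by Dixon's 95% criterion, and chance flags about 1 in 20 sets. Abat, the GABA transaminase gene, was 287 CPM in 5xFAD male 10, where the next highest of that group had 213 CPM. Gabra2, the alpha2 subunit gene, was 145 CPM in 5xFAD male 6, above the next at 101 CPM, and 81.6 CPM in knock-in male 6, below the next at 89.3 CPM. Gabrg1 was 18.8 CPM in 5xFAD female 1, where the others of that group had at least 21.6 CPM. Gphn, the gephyrin gene, was 56.1 CPM in 5xFAD male 9, below the next at 67.6 CPM. Sst was 123 CPM in knock-in female 5, below the next at 185 CPM. Calb2 was 52.0 CPM in knock-in female 1, above the next at 21.5 CPM.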

How the results depend on the processing

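Counts of members called stayed at 0 in every alternative run for the genotype effect with the sexes together, for males, for both sex comparisons and for the slope on the noncoding RNA level. In females the count of 1 became 0 with no low-count filter (Reln -0.44, adjusted p = 0.0533), with the authors' normalized values (-0.44, 0.297), with the noncoding level as a covariate (-0.53, 1) and with the replicate block (-0.43, 0.178). It became 2 with only the groups compared in the fit, and ranged from 0 to 1 when single libraries were left out (Reln from -0.55 to -0.36). The cause of these changes was not tested. In the interaction the count of 0 became 2 with DESeq2 and 1 with scaling by library size alone (Reln -0.82, adjusted p = 0.0318), a scaling that moved the median of all genes by -0.13. Shares of all genes called are not given for the alternatives that called 1 or 2 members, so those counts have no background here. Reln in females and in the interaction, Gabrg1 in the interaction, Gad1 and Gad2 in males, Calb2 over both sexes, and Igsf9b and Shisa7 in females kept their direction in every alternative run. Members that did not pass could change sign in females: Gad1 went from 0.06 to -0.04 with library size alone, Gad2 from 0.11 to -0.01 with the authors' normalized values, and Slc6a11 from 0.17 to -0.22 with the noncoding level as a covariate. Same-numbered libraries of the 2 genotypes did not deviate together (9 pairs, r from -0.20 to 0.12, 2 over 0.1), so the replicate block carries no pairing known from the design. The block could not be fitted for sex comparisons, since numbers differ between the sexes. Limiting the fit to the groups compared did not apply to the genotype effect, the interaction or the slope, which use all libraries, and for the slope the covariate alternative was the level without Meg3. With 4 or 5 animals per group, the SE of variable members such as Calb2 limits what could be detected.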
